A study of Homo sapiens with 8 samples.

Results

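Elastic fibres give skin, lung and artery their recoil. They have a core of cross-linked elastin inside a mantle of microfibrils, which are long polymers of fibrillin decorated with smaller glycoproteins; fibulins and emilins sit on the surface of the fibre and between its parts. In dermis the fibroblast makes most of these proteins, and microfibrils also hold the latent form of the growth factor TGF-beta in the matrix. The 10 genes described here are the fibrillins FBN1 and FBN2, the microfibril-associated glycoproteins MFAP2, MFAP4 and MFAP5, elastin (ELN), the fibulins FBLN1, FBLN2 and FBLN5, and EMILIN1. They were taken by gene symbol from a list of elastic fibre and microfibril components, and the rule uses no measured value. The genes were chosen, however, with earlier results of these data known. Each has 1 row in the deposited tables, and they are 10 of 23274 symbols kept.

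Polyadenylated RNA of 2 human fibroblast lines was sequenced in 8 samples. The groups were SUPT4H1 siRNA in line 2, control siRNA in line 2, SUPT4H1 siRNA in line 1 and control siRNA in line 1, with 2 replicates of each. SUPT4H1 encodes SPT4, a subunit of the elongation factor DSIF that travels with RNA polymerase II. All cells grew in DMEM with 10% FBS and received their siRNA by Lipofectamine RNAiMAX, so the control samples were transfected too. The labels do not say whether the replicates are separate cultures. The p-values therefore rest on how far these samples vary, which may be technical, and 2 lines do not stand for fibroblasts in general. In bulk RNA, fewer cells of a type and less RNA per cell cannot be told apart.

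The authors deposited FPKM, fragment numbers corrected for transcript length and library size, so levels of different genes can be set side by side. Each level is relative to the rest of its library. A change of total RNA per cell would not show, and a rise or fall below need not be one per cell. Log2 changes are differences of log2(FPKM + 1) between SUPT4H1 siRNA and control siRNA, tested with limma across 11444 genes with a mean FPKM of at least 1; 9 of the 10 genes passed that filter and FBN2 did not. A gene is said to have risen or fallen where its adjusted p was under 0.05. SUPT4H1 itself stood at 1.69 and 1.74 FPKM with SUPT4H1 siRNA against 26.2 and 28.3 with control siRNA in line 2, and at 1.37 and 1.43 against 25.6 and 25.6 in line 1. It was left at 6.30% of control in line 2 and 5.46% in line 1. Its log2 changes, -3.38 in line 2 and -3.47 in line 1, differed by an amount that did not pass the test (adjusted p = 0.397). The whole SUPT4H1 row, 7064 bases, is shared with the BZRAP1-AS1 row, which averaged 2.04 FPKM. Use of strand is not given in the sources used here, so the part of BZRAP1-AS1 in the level left was not tested.

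FPKM summed to between 288293 and 305680 per sample. Of 13 fibroblast markers, 11 had a usable estimate, and these 11 averaged 1 FPKM or more; their sum was 10412 to 13366 FPKM with SUPT4H1 siRNA and 11964 to 13556 with control siRNA. COL1A1 and COL1A2 had no usable estimate, and FBLN1 is both a marker and 1 of the 10 genes. No endothelial, keratinocyte and epithelial, or melanocyte and Schwann cell marker averaged 1 FPKM, with KRT5, KRT1, SOX10 and S100B at 0 in every sample. These lists summed to at most 0.327, 0.547 and 0.923 FPKM with SUPT4H1 siRNA and at most 0.295, 0.442 and 1.29 with control siRNA. Of 8 blood cell markers, CD14 and CD68 did, with CD3E at 0 in every sample, and the list summed to 59.4 to 78.2 FPKM with SUPT4H1 siRNA and 45.1 to 51.9 with control siRNA. Of 8 smooth muscle markers, 4 averaged 1 FPKM or more, none was at 0 in every sample, and the list summed to 47.7 to 102.6 FPKM with SUPT4H1 siRNA and 47.6 to 85.2 with control siRNA. Of 6 chondrocyte markers, SOX9 and COMP averaged 1 FPKM or more, and the list summed to 5.54 to 42.9 FPKM with SUPT4H1 siRNA and 10.8 to 63.9 with control siRNA. The part of these other markers in the results below was not tested.

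The promoters of FBN1 and FBLN5 are printed because FBN1 was lower with SUPT4H1 siRNA by nearly the same share in both lines, while FBLN5 was the one gene of the 9 that was higher in both. Each runs from 250 bases before to 50 bases after the start, 5′ to 3′, from RefSeq on GRCh38.p14. FBN1 lies on the minus strand at chr15:48644921-48645220, and the first of 2 FBLN5 entries on the minus strand at chr14:91947645-91947944. Both strands were searched for the TATA box TATAAA, for the CCAAT box with the letters CCAAT, for the GC box GGGCGG and for the AP-1 motif TGACTCA. Capitals mark a match on either strand, and neighbouring GC box matches can share bases.
FBN1 promoter: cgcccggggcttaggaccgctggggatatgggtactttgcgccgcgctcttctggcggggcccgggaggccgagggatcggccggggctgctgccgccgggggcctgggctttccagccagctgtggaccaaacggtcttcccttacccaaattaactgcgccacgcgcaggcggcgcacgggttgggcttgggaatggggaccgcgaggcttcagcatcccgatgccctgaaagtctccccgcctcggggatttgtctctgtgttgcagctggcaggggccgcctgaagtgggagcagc
FBLN5 promoter: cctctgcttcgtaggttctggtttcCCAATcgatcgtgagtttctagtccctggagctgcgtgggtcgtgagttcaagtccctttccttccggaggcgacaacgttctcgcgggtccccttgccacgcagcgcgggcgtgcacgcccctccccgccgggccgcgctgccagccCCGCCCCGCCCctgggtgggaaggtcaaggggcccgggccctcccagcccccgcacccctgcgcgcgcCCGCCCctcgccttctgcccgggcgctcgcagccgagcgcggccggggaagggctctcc
The FBN1 window held none of the 4 motifs. The FBLN5 window held 1 CCAAT box and 3 GC boxes, of which a pair share a base, and the other FBLN5 entry held 1 TATA box, 1 CCAAT box and 1 GC box. Of the 9 entries found for 6 of the 10 genes, 1 held the AP-1 motif, an entry of MFAP2. The other MFAP2 entry held 4 GC boxes, that of FBN2 4, that of FBLN1 1 and the first of FBLN2 7. The second FBLN2 entry held none of the 4 motifs. Whether the motifs go with the direction of change was not tested. Among all 35116 promoters of the table, 11.5% held a TATA box, 34.6% a CCAAT box, 45.0% a GC box and 4.95% the AP-1 motif. A match describes letters in the window and is not a bound site.

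With both lines fitted together and the line as a block, ELN, MFAP5, MFAP4, FBN1 and MFAP2 fell with SUPT4H1 siRNA and FBLN5 rose. That is 5 of 9 that fell, where 15.2% of all genes tested did, and 1 of 9 that rose, where 26.8% of all genes did. The median log2 change of the 9 genes was -0.17, against 0.03 over all genes tested. After scaling by median ratios, which moved the median of all genes by -0.03, 2319 genes rose and 2310 fell in place of 3071 and 1743; the same number of the 9 genes, 5, then fell and none rose (none at an unadjusted p under 0.05). Without a term for the line, 4 samples against 4, 1 of the 9 fell, MFAP5, and none rose (none at an unadjusted p under 0.05 either), where 1.78% of all genes fell and 3.56% rose. The spread between the lines then counts as error, and the adjusted p was 0.101 for FBN1, 0.299 for ELN, 0.133 for MFAP2, 0.603 for MFAP4 and 0.711 for FBLN5.

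**Figure D1:**
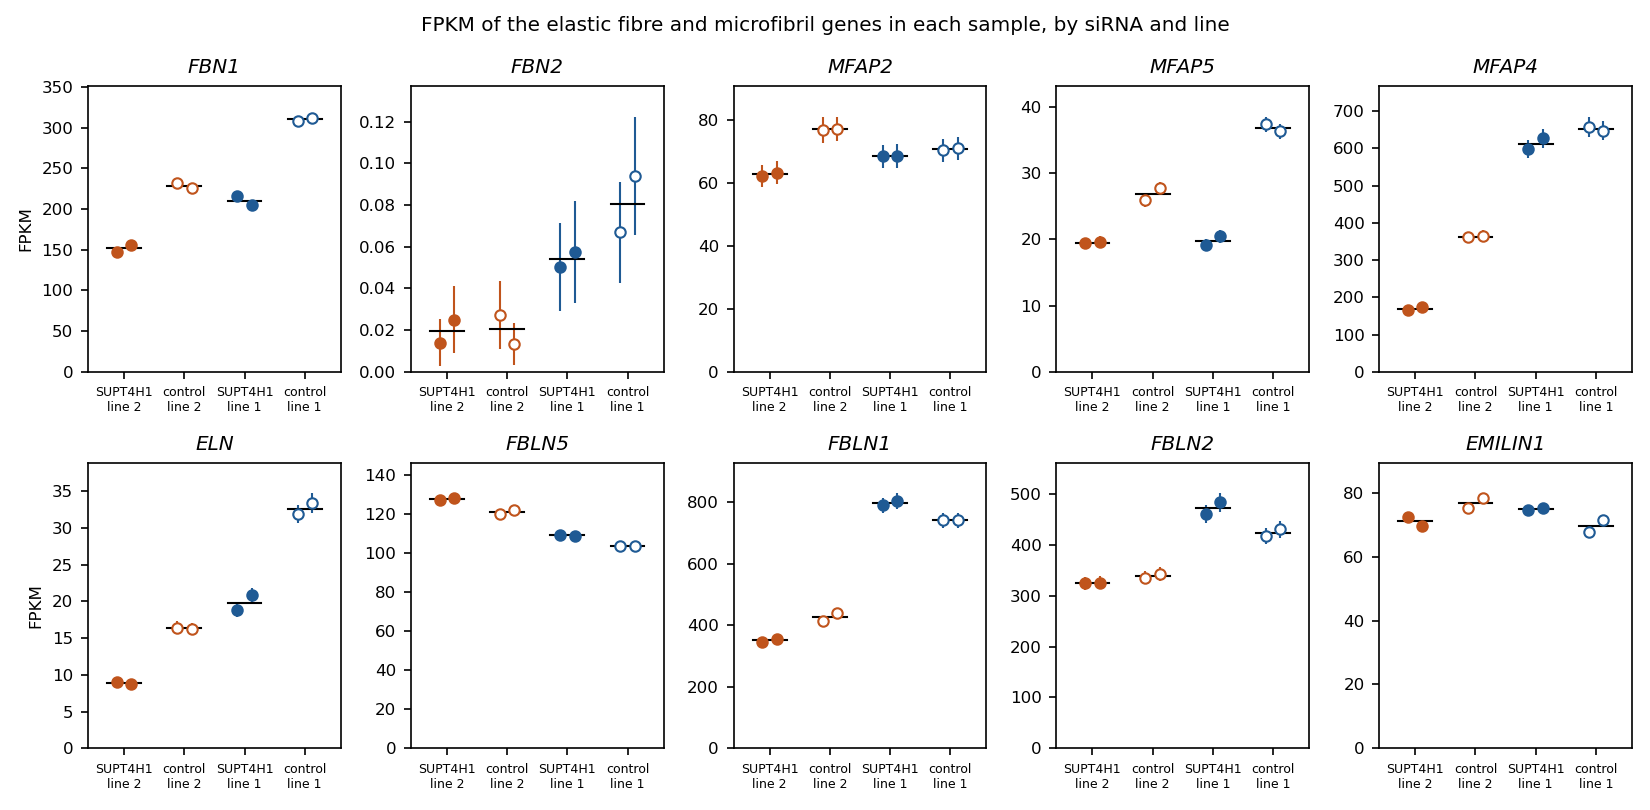
FPKM (vertical axes, each from 0) of the 10 genes in every sample, SUPT4H1 siRNA as filled and control siRNA as open points, line 2 in orange and line 1 in blue; vertical bars are the deposited intervals and horizontal bars the means of 2 samples. FBN1, ELN and MFAP5 lie lower with SUPT4H1 siRNA in both lines, MFAP4 is far lower than control in line 2 and close to it in line 1, and FBN2 stays under 0.1 FPKM throughout.

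FBN1 encodes fibrillin-1, the main building block of adult microfibrils. In hg19 it covers chr15:48700503-48937985, 237 kb of genome; its longest coding transcript in GENCODE has 66 exons and 11756 bases. In line 2 FBN1 stood at 147.7 and 156.4 FPKM with SUPT4H1 siRNA, against 231.6 and 226.0 with control siRNA. In line 1 the values were 215.5 and 205.4 FPKM with SUPT4H1 siRNA, against 308.1 and 312.0 with control siRNA. The samples of the groups did not overlap within either line, although both SUPT4H1 siRNA samples of line 1 lay below both controls of line 2. The remaining level was 66.5% of control in line 2 and 67.9% in line 1. FBN1 fell by 0.57 on the log2 scale over both lines (SE 0.029, adjusted p = 2.52e-06), by 0.59 in line 2 and by 0.56 in line 1. The difference between the lines was -0.029 (SE 0.050, adjusted p = 0.787). Its deposited intervals spanned less than 1% of the value on either side, the narrowest of the 10 genes.

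FBN2, the fibrillin known chiefly from developing tissue, was barely detected. It covers 280 kb at chr5:127593601-127873735. It had 0.0140 and 0.0249 FPKM with SUPT4H1 siRNA against 0.0273 and 0.0133 with control siRNA in line 2, and 0.0503 and 0.0576 against 0.0669 and 0.0941 in line 1. The samples of the siRNAs overlapped in line 2 and did not in line 1, and the deposited intervals overlapped in both. Their widths are those that 6 to 44 fragments would give. The mean difference on the log2 scale was -0.018, and an exact permutation test within the lines, 2-sided, gave p = 0.222, where 0.0556 is the smallest that its 36 arrangements allow. With so few arrangements the test could not have reached 0.05 at any depth, and the fragments were few as well. No conclusion is therefore drawn on a change of FBN2.

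MFAP2 and MFAP5 encode MAGP-1 and MAGP-2, related small glycoproteins that bind fibrillin along the microfibril. MFAP5 covers 16.9 kb at chr12:8798540-8815433 and MFAP2 7.08 kb at chr1:17300999-17308081. In line 2 MFAP5 stood at 19.4 and 19.6 FPKM with SUPT4H1 siRNA, against 25.9 and 27.8 with control siRNA. Line 1 had 19.2 and 20.5 FPKM with SUPT4H1 siRNA, against 37.4 and 36.4 with control siRNA. Line 2 and line 1 thus had unequal MFAP5 with control siRNA and nearly the same level with SUPT4H1 siRNA. MFAP5 fell by 0.65 on the log2 scale over both lines (SE 0.076, adjusted p = 2.11e-04), to 72.6% of control in line 2 and 53.8% in line 1. The fall in line 2 was the smaller by 0.42 (SE 0.059, adjusted p = 0.00192), and MFAP5 was the one gene of the 9 with a difference between lines above 0 that passed the test.

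MFAP2 stood at 62.3 and 63.4 FPKM with SUPT4H1 siRNA against 76.9 and 77.3 with control siRNA in line 2. In line 1 it stood at 68.6 and 68.7 FPKM with SUPT4H1 siRNA against 70.4 and 71.1 with control siRNA. The samples were apart in both lines, but in line 1 the deposited intervals overlapped. The log2 change was -0.17 over both lines (SE 0.046, adjusted p = 0.0168), -0.29 in line 2 (adjusted p = 1.69e-05) and -0.043 in line 1 (adjusted p = 0.229). Leaving out any 1 of the 4 line 2 samples ended the call over both lines (adjusted p = 0.0502 to 0.0529). The ratio of MFAP5 to MFAP2 FPKM within a library was 0.312 and 0.309 with SUPT4H1 siRNA against 0.337 and 0.359 with control siRNA in line 2. In line 1 it was 0.280 and 0.298 against 0.531 and 0.511. This ratio was chosen after the values were seen and was not tested.

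MFAP4, a fibrinogen-related glycoprotein that binds microfibrils and tropoelastin, differed most between the lines. It covers 3.78 kb at chr17:19286755-19290532, the shortest span of the 10 genes, and shares 103 bases with the MAPK7 row, which averaged 12 FPKM; use of strand is not given in the sources used here. In line 2 MFAP4 stood at 165.5 and 174.4 FPKM with SUPT4H1 siRNA, against 361.6 and 365.3 with control siRNA. In line 1 the values were 598.5 and 628.1 FPKM with SUPT4H1 siRNA, against 658.8 and 648.3 with control siRNA. The line 2 groups lay far apart, and the line 1 groups lay close together with overlapping intervals. The level left was 46.8% of control in line 2 (log2 change -1.09, adjusted p = 5.92e-08) and 93.8% in line 1 (log2 change -0.092, adjusted p = 0.0734). The difference between the lines was -1.001 (SE 0.049, adjusted p = 6.07e-06), the largest of the 9 genes. The log2 change over both lines, -0.59 (SE 0.17, adjusted p = 0.0194), averages unlike values, and leaving out any 1 of the 4 line 2 samples ended that call (adjusted p = 0.0563 to 0.0606).

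ELN encodes tropoelastin, the soluble precursor of the elastic core. It covers 42.1 kb at chr7:73442119-73484236, with 34 exons in its longest coding transcript. In line 2 ELN stood at 9.02 and 8.76 FPKM with SUPT4H1 siRNA, against 16.4 and 16.2 with control siRNA. Line 1 had 18.8 and 20.8 FPKM with SUPT4H1 siRNA, against 31.8 and 33.4 with control siRNA. Within each line the groups were well apart, and ELN with SUPT4H1 siRNA in line 1 was still above ELN with control siRNA in line 2. ELN fell by 0.75 on the log2 scale over both lines (SE 0.039, adjusted p = 2.52e-06), the largest change of the 9 genes in that fit. It was left at 54.4% of control in line 2 and 60.7% in line 1, and the difference between the lines, -0.11 (SE 0.066), did not pass the test (adjusted p = 0.332).

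FBLN5 encodes fibulin-5, which binds tropoelastin and cell-surface integrins and is needed to assemble elastic fibres in mice. It covers 78.3 kb at chr14:92335755-92414046. It stood at 127.0 and 128.1 FPKM with SUPT4H1 siRNA against 119.7 and 121.7 with control siRNA in line 2. In line 1 it stood at 109.1 and 108.7 FPKM with SUPT4H1 siRNA against 103.3 and 103.5 with control siRNA. The groups did not overlap in either line, and the rise was small, to 105.7% of control in line 2 and 105.3% in line 1. The log2 change over both lines was 0.076 (SE 0.021, adjusted p = 0.0173). After median-ratio scaling it was 0.041 (adjusted p = 0.124), and without SUPT4H1 siRNA line 2 replicate 2 the adjusted p was 0.0531. The ratio of FBLN5 to ELN FPKM was 14.1 and 14.6 with SUPT4H1 siRNA against 7.29 and 7.49 with control siRNA in line 2, and 5.81 and 5.23 against 3.24 and 3.10 in line 1; this ratio too was chosen after the values were seen.

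EMILIN1, a glycoprotein at the interface of elastin and microfibrils, went different ways in the lines. It covers 7.83 kb at chr2:27301435-27309265. It stood at 72.5 and 69.6 FPKM with SUPT4H1 siRNA against 75.2 and 78.5 with control siRNA in line 2. In line 1 the values were 74.7 and 75.3 FPKM with SUPT4H1 siRNA against 67.8 and 71.4 with control siRNA. The samples with SUPT4H1 siRNA were thus below control in line 2, with overlapping intervals, and above it in line 1. The log2 change was -0.11 in line 2 (adjusted p = 0.0281), 0.11 in line 1 (adjusted p = 0.0465) and -0.0030 over both (adjusted p = 0.965). The difference between the lines was -0.22 (SE 0.050, adjusted p = 0.0250), and with 1 sample left out at a time its adjusted p was 0.0244 to 0.0913.

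FBLN1 and FBLN2 encode fibulins of elastic fibres and basement membranes. FBLN1 covers 98.3 kb at chr22:45898719-45997014 and FBLN2 89.3 kb at chr3:13590625-13679922. FBLN1 stood at 346.6 and 355.8 FPKM with SUPT4H1 siRNA against 415.2 and 441.1 with control siRNA in line 2. Line 1 had 789.4 and 803.6 FPKM with SUPT4H1 siRNA against 740.3 and 740.4 with control siRNA. The samples were apart in both lines, in opposite directions, with overlapping deposited intervals in line 1. The log2 change was -0.28 in line 2 (adjusted p = 1.31e-04) and 0.11 in line 1 (adjusted p = 0.0420), and the lines differed by -0.39 (SE 0.048, adjusted p = 0.00102). Over both lines the change, -0.090, did not pass the test (adjusted p = 0.339).

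FBLN2 stood at 324.8 and 325.6 FPKM with SUPT4H1 siRNA against 335.8 and 343.5 with control siRNA in line 2. In line 1 it stood at 461.4 and 484.0 FPKM with SUPT4H1 siRNA against 417.8 and 430.8 with control siRNA. It lay slightly below control in both line 2 samples and above it in both line 1 samples, with overlapping intervals in each line. The log2 change was -0.063 in line 2 (adjusted p = 0.145) and 0.16 in line 1 (adjusted p = 0.00529), and over both lines it was 0.046 (adjusted p = 0.443). The difference between the lines was -0.22 (SE 0.045, adjusted p = 0.0159), with an adjusted p of 0.0151 to 0.0713 when 1 sample was left out at a time.

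**Figure D2:**
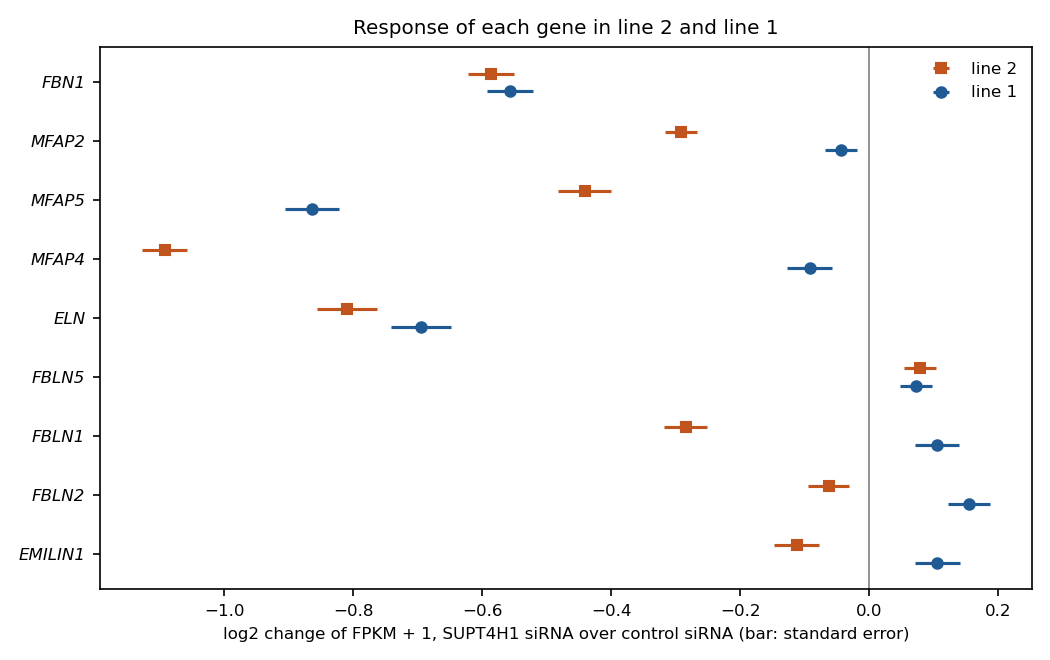
Log2 change of FPKM + 1, SUPT4H1 siRNA over control siRNA (horizontal axis), of the 9 genes tested, with line 2 as orange squares and line 1 as blue circles; bars are standard errors from the fit of 4 group means. FBN1 and FBLN5 lie at nearly the same place in both lines. ELN is at -0.81 in line 2 and -0.69 in line 1, and MFAP4 is at -1.09 in line 2 and -0.092 in line 1.

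Counted by line, 7 of the 9 genes fell in line 2 (MFAP4, ELN, FBN1, MFAP5, MFAP2, FBLN1 and EMILIN1), where 15.9% of all genes did, and 1 rose (FBLN5), where 26.9% of all genes did. In line 1, 3 of the 9 fell (MFAP5, ELN and FBN1), where 11.7% of all genes did, and 4 rose (FBLN2, FBLN1, EMILIN1 and FBLN5), where 19.0% of all genes did. The median log2 change of the 9 was -0.29 in line 2 and -0.043 in line 1, against 0.04 in line 2 and 0.03 in line 1 over all genes. The rises in line 1 were small, from 105.3% of control for FBLN5 to 111.4% for FBLN2. After median-ratio scaling those of FBLN1, EMILIN1 and FBLN5 no longer passed (adjusted p = 0.0592, 0.0882 and 0.156), as was true of FBLN5 in line 2 (adjusted p = 0.182), while MFAP2 and MFAP4 then fell in line 1 (adjusted p = 0.0421 and 0.0191) and FBLN2 in line 2 (adjusted p = 0.0137). ELN, FBN1 and MFAP5 fell in both lines under that scaling as well, and with any 1 sample left out. How many of all genes tested did so is not given here. The line 2 call of FBLN5 ended without control siRNA line 2 replicate 1 or any 1 of the SUPT4H1 siRNA line 2 or control siRNA line 1 samples (adjusted p of up to 0.129), and that of EMILIN1 without replicate 2 of either siRNA in line 2 (up to 0.173). The line 1 calls of FBLN1 and FBLN5 ended without any 1 line 1 sample or SUPT4H1 siRNA line 2 sample (up to 0.167 and 0.185). The line 1 call of EMILIN1 ended without any 1 SUPT4H1 siRNA sample or control siRNA line 1 replicate 1 (up to 0.283), and that of FBLN2 without the last of these (0.0521).

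The response differed between the lines for 6 of the 9 genes. It was lower in line 2 for 5 of them (MFAP4, FBLN1, MFAP2, FBLN2 and EMILIN1), where 4.48% of all genes passed in that direction, and higher for MFAP5, where 5.39% of all genes did. The differences of MFAP4, MFAP5, FBLN1 and MFAP2 (-0.25, SE 0.036, adjusted p = 0.00234) passed the test with any 1 of the 8 samples left out, at adjusted p of up to 0.0149. That of FBLN2 did not without control siRNA line 1 replicate 1, SUPT4H1 siRNA line 1 replicate 2 or any 1 SUPT4H1 siRNA line 2 sample (up to 0.0713), nor that of EMILIN1 without control siRNA line 1 replicate 1, any 1 SUPT4H1 siRNA line 1 sample or replicate 2 of either siRNA in line 2 (up to 0.0913). FBN1, ELN and FBLN5 did not pass, which does not show that their responses were equal. The SUPT4H1 levels left in each line are given above.

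**Figure D3:**
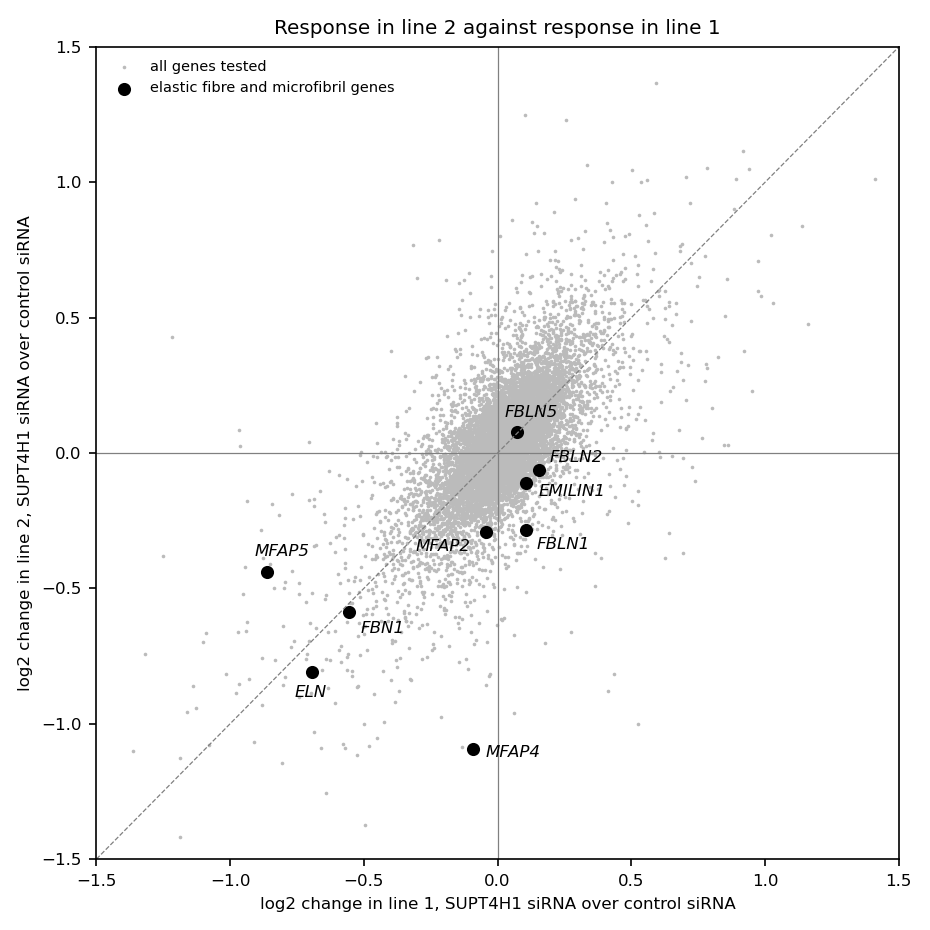
Log2 change in line 2 (vertical axis) against that in line 1 (horizontal axis), both SUPT4H1 siRNA over control siRNA, with all genes tested in grey and the 9 elastic fibre and microfibril genes in black; 15 genes lie outside the axes, which end at 1.5 either way, and the dashed line marks equal change. FBN1 and ELN lie near the dashed line, MFAP5 above it, and MFAP4, FBLN1 and MFAP2 below it.

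The lines also differed with control siRNA. All 9 genes passed the test of line 2 against line 1 in control samples: 3 were higher in line 2 (FBLN5 with a log2 difference of 0.22, EMILIN1 with 0.14 and MFAP2 with 0.12), where 24.2% of all genes were, and 6 were lower (ELN with -0.96, MFAP4 with -0.84, FBLN1 with -0.79, MFAP5 with -0.45, FBN1 with -0.44 and FBLN2 with -0.32), where 33.8% of all genes were. ELN in line 2 controls was 50.1% of its level in line 1 controls, MFAP4 55.6% and FBLN1 57.8%. These values share their control samples with the responses above, so the relation of the 2 was not tested.

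In order of level, FBLN1 was the highest and FBN2 the lowest of the 10 in all 4 groups. With SUPT4H1 siRNA in line 2 the order was FBLN1, FBLN2, MFAP4, FBN1, FBLN5, EMILIN1, MFAP2, MFAP5, ELN and FBN2, and no neighbours overlapped. With control siRNA in line 2 MFAP4 lay above FBLN2, at a mean of 363.4 FPKM against 339.7 FPKM, and the samples of MFAP2 and EMILIN1 overlapped. In line 1 MFAP4 lay above FBLN2 with SUPT4H1 siRNA as well as with control siRNA, and the order was otherwise that of line 2. MFAP5 and ELN overlapped there with SUPT4H1 siRNA, and MFAP2 and EMILIN1 with control siRNA. The 10 genes together came to 1275 and 1302 FPKM with SUPT4H1 siRNA against 1658 and 1697 with control siRNA in line 2. In line 1 they came to 2355 and 2415 FPKM with SUPT4H1 siRNA against 2436 and 2447 with control siRNA.

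Other genes of the pathway were counted over lists drawn up by function, with earlier results of these data known. Of 13 tested microfibril partners and latent TGF-beta binding proteins, 4 rose and 5 fell over both lines, where 26.8% of all genes rose and 15.2% fell; the median log2 change was 0.03, as over all genes. LTBP1, which tethers latent TGF-beta to fibrillin microfibrils, stood at 21.6 and 22.4 FPKM with SUPT4H1 siRNA against 37.6 and 37.9 with control siRNA in line 2, and at 23.9 and 22.3 against 42.7 and 43.9 in line 1. It fell by 0.82 on the log2 scale (adjusted p = 1.04e-06) with no overlap of the groups. LTBP2 fell by 0.45 (adjusted p = 2.23e-04) and LTBP4, which also serves elastin assembly, by 0.18 (adjusted p = 4.12e-04), while LTBP3 rose by 0.23 (adjusted p = 3.76e-04). ADAMTSL4, a fibrillin-binding protein, rose by 0.41 (adjusted p = 0.00113). ADAMTS6, a protease of the same superfamily, averaged 0.956 FPKM with SUPT4H1 siRNA against 1.41 with control siRNA, a log2 change of -0.31. By line, it stood above 1 FPKM only in line 2, at 1.37 and 1.44 FPKM with SUPT4H1 siRNA against 1.87 and 1.88 with control siRNA. In line 1 it stood at 0.487 and 0.529 against 0.885 and 0.989. It thus passed the filter on FPKM only through the groups where it was high. Its call and the count of 5 that fell are therefore a description. The response of line 2 minus that of line 1 passed the test for LTBP2, at 0.29 (adjusted p = 0.00164), and ADAMTSL4, at 0.37 (adjusted p = 0.00101).

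Of 13 tested genes of elastic fibre assembly and cross-linking, 3 rose and 7 fell, where 26.8% of all genes rose and 15.2% fell; the median log2 change was -0.16, against 0.03 over all genes. EFEMP1, or fibulin-3, stood at 49.6 and 52.9 FPKM with SUPT4H1 siRNA against 88.5 and 94.4 with control siRNA in line 2, and at 242.4 and 262.3 against 364.8 and 371.5 in line 1. It fell by 0.68 on the log2 scale (adjusted p = 4.14e-05), whereas EFEMP2, or fibulin-4, which brings lysyl oxidase to tropoelastin, was higher by 0.083 (adjusted p = 0.0309). LOX, the lysyl oxidase that cross-links elastin, stood at 521.9 and 523.3 FPKM with SUPT4H1 siRNA against 509.5 and 538.5 with control siRNA in line 2, with overlapping samples. In line 1 LOX stood at 191.1 and 185.0 FPKM with SUPT4H1 siRNA against 224.2 and 223.1 with control siRNA, with the groups apart. Over both lines its log2 change of -0.13 did not pass the test (adjusted p = 0.0654), and the lines differed by 0.25 (adjusted p = 0.00953). The lines also differed in EFEMP1, by -0.28 (adjusted p = 0.0283), and FBLN7, by -0.29 (adjusted p = 0.0168). LOXL1, which is needed for elastic fibre renewal in mice, fell by 0.41 (adjusted p = 7.81e-06), LOXL3 by 0.55 (adjusted p = 1.87e-05), the large matrix protein gene HMCN1 by 0.91 (adjusted p = 2.52e-06) and FBLN7 by 0.45 (adjusted p = 3.70e-04).

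**Figure D4:**
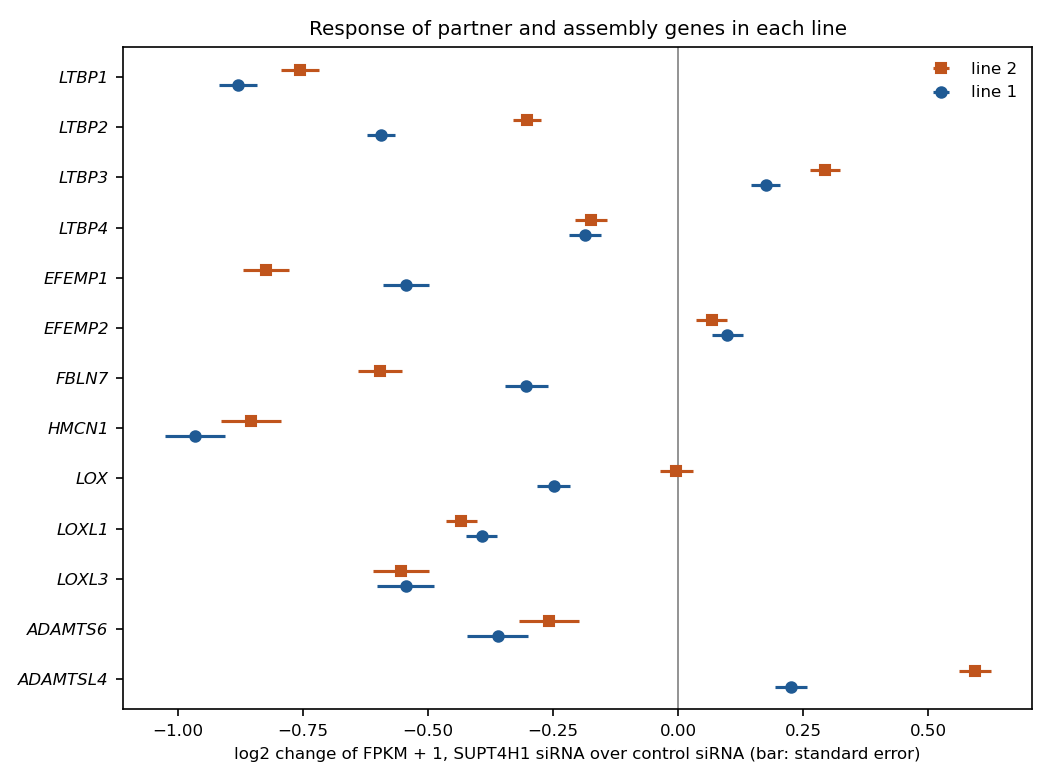
Log2 change of FPKM + 1, SUPT4H1 siRNA over control siRNA (horizontal axis), of 13 partner and assembly genes, with line 2 as orange squares and line 1 as blue circles; bars are standard errors. LTBP1, LOXL1, LOXL3 and HMCN1 lie below 0 in both lines, LTBP3 and ADAMTSL4 above 0 in both, and LOX is at -0.0032 in line 2 and -0.25 in line 1.

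Of 8 tested receptor genes for elastin and fibrillin, 4 rose and 1 fell, where 26.8% of all genes rose and 15.2% fell; the median log2 change was 0.096, against 0.03 over all genes. NEU1 and CTSA, parts of the elastin receptor complex, rose by 0.36 and 0.31 on the log2 scale (adjusted p = 1.69e-05 and 8.74e-05). The integrin subunit genes ITGB1 and ITGB5 moved apart, at 0.20 (adjusted p = 4.94e-04) and -0.33 (adjusted p = 5.68e-04), and ITGB5 differed between the lines by 0.23 (adjusted p = 0.0149). Of 12 tested genes for proteases that degrade elastin and their inhibitors, 7 rose and 1 fell, where 26.8% of all genes rose and 15.2% fell; the median log2 change was 0.14, against 0.03 over all genes. Of the 7, MMP12 and CTSS passed the filter on FPKM only through groups where they were high, so their calls and this count are a description. CTSK, the protease cathepsin K, stood at 397.1 and 395.8 FPKM with SUPT4H1 siRNA against 247.7 and 253.6 with control siRNA in line 2, and at 265.3 and 258.0 against 200.4 and 196.0 in line 1. It rose by 0.53 on the log2 scale (adjusted p = 6.86e-05), with a difference between the lines of 0.26 (adjusted p = 0.00328). Of the protease inhibitor genes, TIMP2 rose by 0.31 (adjusted p = 7.88e-05) and CST3 by 0.20 (adjusted p = 0.00653), while TIMP3 was the one gene of the list that fell, by 0.25 (adjusted p = 4.51e-04). CTSS, the protease cathepsin S, averaged 1.17 FPKM with SUPT4H1 siRNA against 0.669 with control siRNA in line 2, and 1.83 against 0.960 in line 1. MMP12, macrophage elastase, had 3.34 and 3.75 FPKM with SUPT4H1 siRNA against 0.807 and 1.07 with control siRNA in line 2, and 0.213 and 0.257 against 0.0660 and a listed 0 in line 1. The blood cell marker CD68 was named after its value was seen. It was also higher, by 0.48 (adjusted p = 0.00277), with a difference of 0.53 between the lines (adjusted p = 9.42e-05). Of the 8 blood cell markers only CD14 and CD68 averaged 1 FPKM or more, and the change of CD14 is not given here. The part of CD68 in these values was not tested.

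Among TGF-beta ligand and response genes, CTGF, a known target of TGF-beta signalling, stood at 134.5 and 146.3 FPKM with SUPT4H1 siRNA against 214.7 and 230.6 with control siRNA in line 2, and at 53.7 and 50.2 against 102.9 and 102.5 in line 1. It fell by 0.82 on the log2 scale (adjusted p = 2.21e-05), with no overlap of the groups within a line, and the lines differed by 0.31 (adjusted p = 0.0223). The receptor genes TGFBR1 and TGFBR3 fell by 0.55 (adjusted p = 1.28e-04) and 0.50 (adjusted p = 2.08e-05), while TGFBR2, which encodes their partner receptor, and SMAD3, a signal transducer of the pathway, rose by 0.24 (adjusted p = 2.11e-04) and 0.13 (adjusted p = 0.0467). The lines differed in TGFBR1 by -0.31 (adjusted p = 0.00911), in TGFBR3 by -0.19 (adjusted p = 0.0206) and in SMAD3 by 0.23 (adjusted p = 0.0176), each as line 2 minus line 1.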

How the data were processed

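Polyadenylated RNA of 8 samples, 2 lines with 2 replicates of each siRNA, was sequenced, per the labels' protocols. The authors deposited FPKM values with lower and upper bounds and a status for 27032 rows per sample, on hg19 per the submitters' processing notes; the aligner, quantification tool, annotation, use of strand and fragment totals were not given in the sources used here. Rows spanning under 200 bases (2141) or on alternate or unplaced sequences (1249) were left out, and rows of 1 symbol were summed.

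limma 3.58.1 in R 4.3.3 was run on log2(FPKM + 1), which understates changes of low values, 2-sided, with variances following mean level and p-values adjusted by Benjamini-Hochberg over 11444 genes (mean FPKM at least 1, status OK in every sample; 12 genes failed on status) and a threshold of 0.05. The fit over both lines had siRNA and line as terms (5 residual degrees of freedom); responses by line and their difference came from 4 group means (4 residual degrees of freedom). The line pairs the groups because its samples come from the same cells: deviations of samples of the same line correlated at 0.883 to 0.899. FBN2 was tested by an exact permutation test within lines. The code was tested on simulated data. The rest used numpy 2.4.6 and pandas 2.3.3 under Python 3.11.15, with plots from matplotlib 3.10.9.

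Named are the 10 genes, SUPT4H1, 8 direct partners and up to 4 genes of each pathway list with the largest change past the threshold; CD68, CST3, TIMP3, TGFBR2 and SMAD3 were named after their values were seen. An item of the TGF-beta list, and that list's counts, are not reported here. The genes and lists were chosen with earlier results of these data known. Alternatives were another pseudocount, other filters, median-ratio scaling, no variance trend, other blocks, single-row symbols and each sample left out. Gene spans are hg19 positions from the deposited tables, 1-based; transcripts are from GENCODE 29 and promoters from RefSeq on GRCh38.p14, and no position was converted.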

Additional observations from a re-analysis of the deposited data

Results flagged for a closer look

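For 6 of the 9 genes tested the response to SUPT4H1 siRNA differed between the lines by the limma contrast of line 2 minus line 1. The difference on the log2 scale was -1.001 for MFAP4 (46.8% of control left in line 2 and 93.8% in line 1), 0.42 for MFAP5, -0.39 for FBLN1, -0.25 for MFAP2, -0.22 for FBLN2 and -0.22 for EMILIN1. For FBLN1, FBLN2 and EMILIN1 both samples with SUPT4H1 siRNA lay below both controls in line 2 and above both in line 1. The limma change of FBLN2 in line 2 did not pass the test (adjusted p = 0.145). Deposited intervals overlapped for FBLN2 in both lines, FBLN1 in line 1 and EMILIN1 in line 2. How many of all genes tested part in this way is not given here, so the pattern is a description. With 2 lines, what sets them apart was not tested.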

How the results depend on the processing

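Over both lines, the pseudocount, the FPKM filter of 5, the variance trend and single-row symbols changed no call of the 9 genes. MFAP4 missed the threshold with no FPKM filter (adjusted p = 0.0674) and with a replicate block of line and replicate number (adjusted p = 0.0539). These settings changed no other call. Deviations of same-numbered samples from their group means correlated at 0.0502 in line 2 and 0.103 in line 1. That is 1 value per line, so it cannot decide whether same-numbered samples were handled together. With no replicate block, 0 of the 9 genes rose (0 at an unadjusted p under 0.05) and 1 fell, and 407 genes rose and 204 fell; the unadjusted p was under 0.05 for FBN1 (0.00980) and MFAP2 (0.0161) as well. With median-ratio scaling 0 of the 9 rose (0 at an unadjusted p under 0.05) and 5 fell. With 1 sample left out, 3 to 5 of the 9 fell and 0 to 1 rose, and of all genes 1401 to 1652 fell and 2485 to 2925 rose. ELN, FBN1 and MFAP5 stayed past the threshold with any 1 sample left out, at adjusted p of up to 0.00109. The EMILIN1 change of -0.0030 became -0.039 to 0.031 with 1 sample left out, and was above 0 without each of the 4 line 2 samples. Near-zero differences between lines changed sign too: FBN1 ran from -0.070 to 0.012 and FBLN5 from -0.0061 to 0.017 with 1 sample left out, and FBLN5 was -0.0055 with scaling. The 1-sample-out fits of the lines were chosen after seeing the data. They ended calls of FBLN5 and EMILIN1 in each line, of FBLN1 and FBLN2 in line 1 and of the FBLN2 and EMILIN1 differences, with the samples and values given beside those results. Where a group was left with 1 sample, it is assumed to vary like the others. The causes were not tested. Among the 10 genes depth limits FBN2 most, with interval half-widths of 30.1 to 81.6% of its value.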
